A study of Mus musculus with 12 samples.

Results

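The transforming growth factor beta (TGF-beta) and bone morphogenetic protein (BMP) pathway was described through 39 genes, from ligands to target genes, in mouse embryonic fibroblasts that received the SKO reprogramming factors or did not. The genes were chosen by name for their roles in the pathway, with earlier results of these data known. Shares of members set beside those of all genes are therefore descriptions and not independent tests. Each gene was read through a probe set that the platform annotation gives to that gene alone. All 39 had 1 such probe set, among 19938 genes measured. On the scale of mean level over the 12 arrays, 29 of the 39 lay above the median of all genes and 1, Lefty2, lay below the 25th percentile.

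Fibroblasts came from embryos of OG2 mice, which carry a green fluorescent protein reporter of Oct4, crossed with 129/sv. The cells were grown in medium for mouse embryonic stem cells after 2 rounds of infection. In the first arm they carried SKO, read here as Sox2, Klf4 and Oct4, together with a retrovirus for microRNA cluster C, a retrovirus for microRNA cluster B, or a blank control virus. In the second arm, tagged Group2 in the titles, the same 3 viruses were given without SKO. RNA was taken at day 8 and at day 4, counted from the first infection, after removal of feeder cells. Each of the 12 combinations had 1 array, so precision is limited by how few arrays there are. The labels name neither the microRNAs in the clusters nor the number of embryos behind a culture, and since the arms are the 2 groups of the labels, SKO cannot be told apart from anything else in which those groups differ. A description text that is the same for all 12 arrays names another cell and another day, and was not used.

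TGF-beta family ligands bind pairs of type I and type II receptor kinases, which phosphorylate Smad proteins. TGF-beta, activin and Nodal act through Smad2 and Smad3, and BMPs through Smad1, Smad5 and Smad9. Both branches share Smad4, and Smad6 and Smad7 inhibit them. In fibroblasts TGF-beta is known for driving matrix and contractile genes. During reprogramming, TGF-beta signalling is known to oppose the change to an epithelial state, and BMP signalling to favour it.

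Values are log2 expression as deposited, so a difference of 1 is a doubling, and levels are not compared between genes. Differences carry the standard error (SE) of 1 limma fit over all 12 arrays, and a gene was said to rise or fall at a Benjamini-Hochberg adjusted p below 0.05 over all 19938 genes. The spread behind these tests is the amount by which, within an arm, a virus effect differs between days and a day effect between viruses, and may be technical. It does not hold the amount by which the SKO difference varies between viruses. Triplets of values stand in the order cluster C, cluster B, blank virus. Pou5f1, which encodes Oct4, was at 11.60 or more on the 6 SKO arrays and at 4.56 or less on the 6 others. Array medians lay between 4.98 and 5.07, and lower quartiles between 3.48 and 3.68. Markers of the labelled cell type were present in both arms. The mean log2 level of 10 fibroblast markers was 9.47 to 9.77 over the arrays with SKO and 10.52 to 10.83 over those without, and 8 of the 10 fell with SKO at each day. Of 5 epithelial markers, 5 rose with SKO at day 8 and 3 at day 4, and of 4 smooth muscle markers, 4 fell at each day. Of 6 leukocyte markers, 5 fell and 1 rose with SKO at day 8, with a median of -0.67, and their mean level was 4.74 to 4.83 with SKO, against 5.01 to 5.22 without. Of 5 endothelial markers, 1 rose at each day. Of 6 pluripotency markers, 4 rose with SKO at day 8 and 0 at day 4 by the limma fit, where 0 had an unadjusted p below 0.05, and their mean level was 5.34 to 7.26 with SKO at day 8, against 4.15 to 4.17 without. The day 8 array of cluster C and SKO was the highest, with Nanog at 8.08 and Dppa5a at 10.22, and the other 2 day 8 arrays with SKO came next, with Nanog at 6.39 and 6.34 and Dppa5a at 6.82 and 6.61. In bulk RNA, fewer cells of a type and less RNA per cell cannot be told apart, and the part of these shifts in the results below was not tested.

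**Figure D1:**
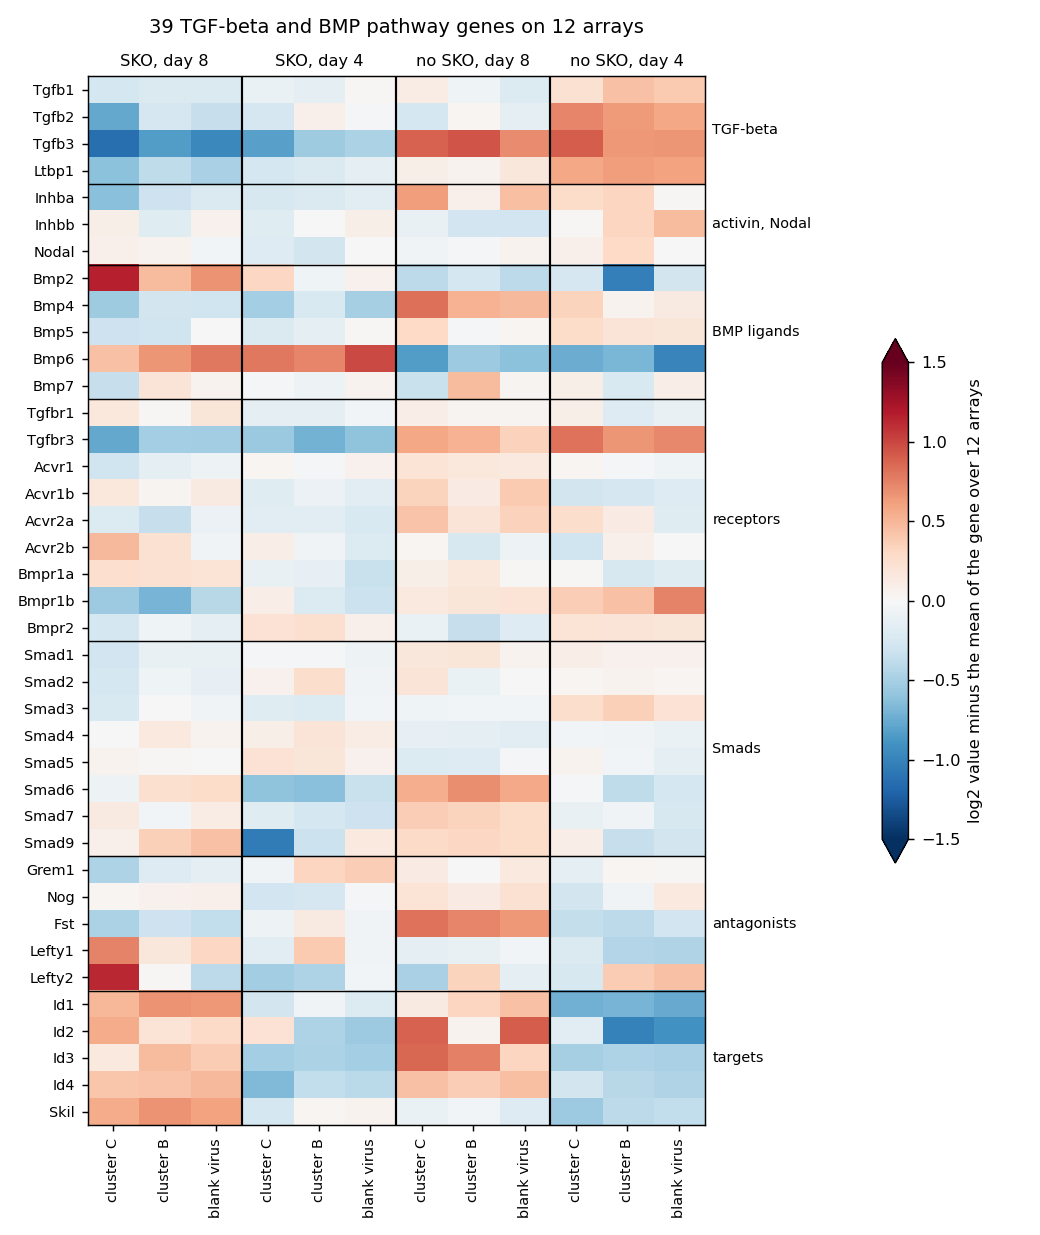
Log2 value of each of the 39 genes (rows, grouped by role) on each of the 12 arrays (columns), minus the mean of that gene over the 12 arrays. Tgfb3, Ltbp1, Tgfbr3 and Bmp4 are below their mean on all arrays with SKO, Bmp6 is above it on all of them, and Id1, Id3 and Id4 are higher at day 8 than at day 4 in both arms.

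The first question was how the pathway differed in cells carrying SKO. At day 8, Tgfb3, Bmp4, the co-receptor gene Tgfbr3 and the activin antagonist gene Fst were the lowest of the members relative to cells without SKO, while Bmp6, Bmp2 and Skil were higher. Of the 39 members, 12 fell (30.8%), against 12.7% of all genes, and 3 rose (7.69%), against 13.4% of all genes. At day 4, 8 fell (20.5%, against 9.4% of all genes) and 5 rose (12.8%, against 9.52%). The median difference of the members was -0.17 at day 8 and -0.09 at day 4, beside -0.07 and -0.04 over all genes.

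Tgfb3 encodes a TGF-beta ligand. It was at 6.40, 6.69 and 6.56 with SKO at day 8 and at 6.71, 7.0 and 7.05 with SKO at day 4, against 8.41, 8.47 and 8.24 without SKO at day 8 and 8.44, 8.18 and 8.19 without SKO at day 4. The arrays of the arms were more than 1 log2 unit apart on each day and did not overlap. The difference was -1.82 ± 0.11 at day 8 (limma adjusted p = 3.85e-06) and -1.35 ± 0.11 at day 4 (adjusted p = 4.01e-05).

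Ltbp1, whose product holds latent TGF-beta in the matrix, was at 8.41, 8.64 and 8.53 with SKO and at 9.10, 9.07 and 9.19 without SKO at day 8. At day 4 it was at 8.75, 8.80 and 8.87 with SKO, against 9.59, 9.65 and 9.63 without. All arrays with SKO lay below all arrays without. Ltbp1 fell by 0.60 at day 8 and by 0.81 at day 4 (SE 0.10 each). The ligand genes Tgfb2 and Tgfb1 fell at day 4, by 0.72 ± 0.11 (limma adjusted p = 0.00192) and 0.43 ± 0.12 (adjusted p = 0.0318). At day 8 their differences were -0.33 (adjusted p = 0.0571) and -0.18 (adjusted p = 0.296), and the values of Tgfb2 in the arms overlapped, with 5.87 to 6.39 with SKO and 6.37 to 6.66 without.

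Among activin and Nodal ligands, Inhba, which encodes the subunit of activin A, was at 6.22, 6.54 and 6.62 with SKO at day 8, against 7.47, 6.92 and 7.30 without. The arms did not overlap on either day. Inhba fell by 0.77 ± 0.15 at day 8 (limma adjusted p = 0.00439) and was at -0.42 ± 0.15 at day 4 (adjusted p = 0.0805). Inhbb and Nodal did not pass on either day. Nodal, the ligand that patterns the early embryo, stayed between 4.58 and 5.16 on all 12 arrays.

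The BMP ligand genes went in both directions. Bmp6 was at 6.19, 6.41 and 6.54 with SKO at day 8 and at 6.54, 6.48 and 6.73 at day 4, against 4.91, 5.20 and 5.13 without SKO at day 8 and 5.0, 5.06 and 4.75 at day 4. The lowest array with SKO lay well above the highest without. Bmp6 rose by 1.30 ± 0.12 at day 8, which is 2.46-fold (limma adjusted p = 5.26e-05), and by 1.64 ± 0.12 at day 4, which is 3.13-fold (adjusted p = 2.45e-05). Bmp2 was at 5.66, 4.96 and 5.17 with SKO at day 8 and at 4.80, 4.43 and 4.56 at day 4, against 4.10, 4.23 and 4.10 without SKO at day 8 and 4.24, 3.47 and 4.21 at day 4. The arms did not overlap, and the highest value was on the day 8 array of cluster C and SKO. Bmp2 rose by 1.12 ± 0.17 at day 8 (adjusted p = 0.00139) and by 0.62 ± 0.17 at day 4 (adjusted p = 0.0355). Its values without SKO lie near the lower quartile of the arrays, so the size of the rise is uncertain.

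Bmp4 moved the other way. It was at 6.30, 6.56 and 6.53 with SKO at day 8, against 7.66, 7.36 and 7.32 without, and at 6.32, 6.60 and 6.33 with SKO at day 4, against 7.17, 6.89 and 6.96 without. No array with SKO reached the lowest array without. Bmp4 fell by 0.98 ± 0.10 at day 8 (limma adjusted p = 0.000111) and by 0.59 ± 0.10 at day 4 (adjusted p = 0.00336). Bmp5 missed the threshold on both days, with -0.31 at day 8 and -0.32 at day 4 (adjusted p = 0.0510 and 0.0523), and so did Bmp7, with -0.10 and -0.01.

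**Figure D2:**
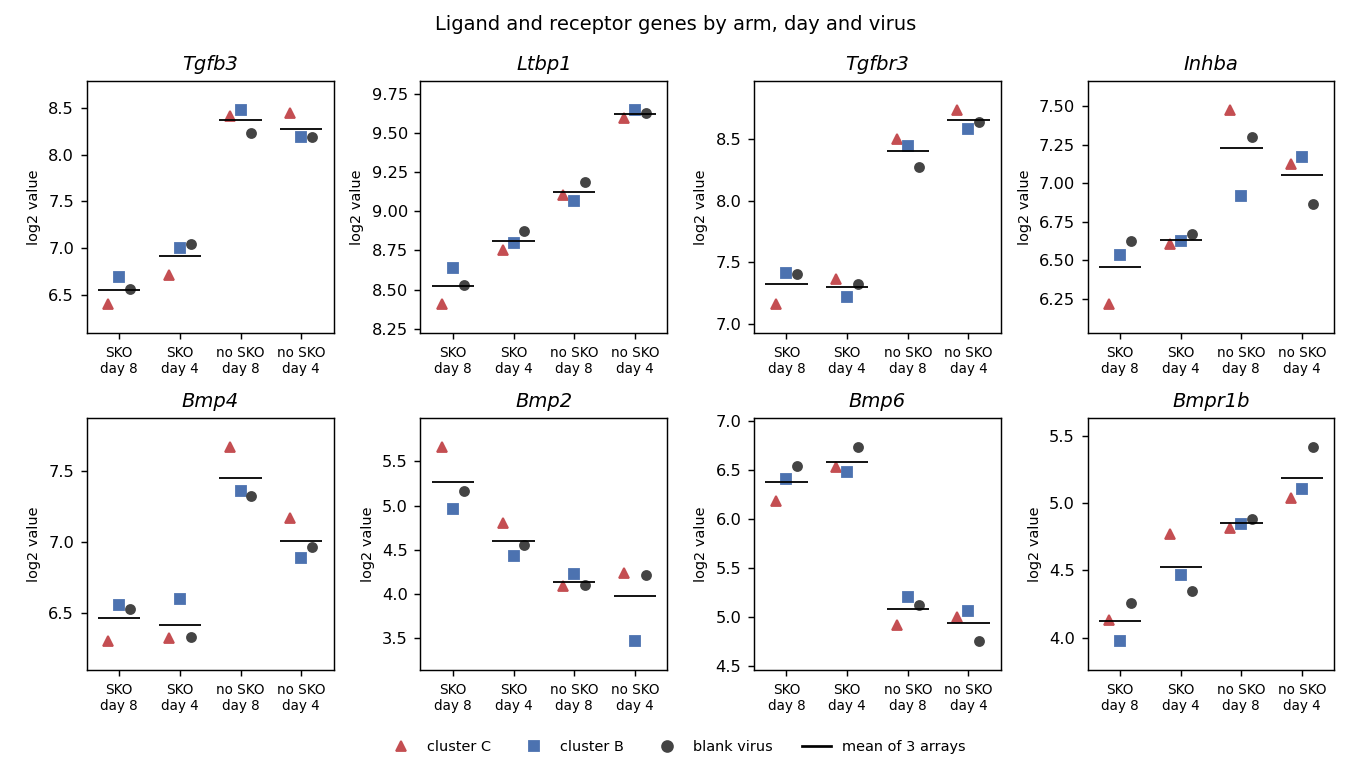
Log2 value (y axis, scaled per gene) of 8 ligand, latency and receptor genes by arm and day (x axis), 1 point per array with the virus as the symbol and a line at the mean of 3 arrays. Tgfb3, Ltbp1, Tgfbr3, Inhba, Bmp4 and Bmpr1b are lower on every array with SKO than on any without, and Bmp2 and Bmp6 higher.

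Of the 9 receptor genes, 4 fell at day 8, 2 fell at day 4 and 0 rose by the limma fit, with 5 and 2 at an unadjusted p below 0.05. The share that passed in either direction was 44.4% at day 8 and 22.2% at day 4, beside 26.1% and 18.9% of all genes. All of these receptor calls were falls, and 12.7% and 9.4% of all genes fell. Tgfbr3 encodes betaglycan, a co-receptor that presents TGF-beta ligands. It was at 7.16, 7.42 and 7.40 with SKO at day 8, against 8.5, 8.45 and 8.27 without, and at 7.37, 7.22 and 7.32 with SKO at day 4, against 8.74, 8.58 and 8.64 without. The gap between the arms was wider than the spread within either of them. Tgfbr3 fell by 1.08 ± 0.11 at day 8 (adjusted p = 0.000125) and by 1.35 ± 0.11 at day 4 (adjusted p = 5.65e-05).

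Bmpr1b, a type I BMP receptor gene, was at 4.13, 3.97 and 4.26 with SKO at day 8, against 4.82, 4.85 and 4.88 without, and at 4.77, 4.47 and 4.34 with SKO at day 4, against 5.04, 5.11 and 5.42 without. These are low levels, yet the arms did not overlap. It fell by 0.73 ± 0.13 at day 8 and by 0.66 ± 0.13 at day 4 (limma adjusted p = 0.00303 and 0.00705). The type I receptor gene Acvr1 (-0.35) and the activin type II receptor gene Acvr2a (-0.53) fell at day 8. The type I TGF-beta receptor gene Tgfbr1 ranged over 7.22 to 7.54 with SKO, against 7.17 to 7.46 without, with differences of 0.06 at day 8 and -0.04 at day 4 (SE 0.10). The BMP receptor genes Bmpr1a and Bmpr2 and the activin receptor genes Acvr1b and Acvr2b did not pass either. The type II TGF-beta receptor gene Tgfbr2 was neither a member nor among the other pathway genes read below, so it is not covered here.

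Of the 8 Smad genes, 2 fell at day 8 (25%, against 12.7% of all genes) and 1 at day 4 (12.5%, against 9.4%), and none rose. In either direction, 26.1% of all genes passed at day 8 and 18.9% at day 4. Smad1, a BMP-branch Smad, ranged at day 8 over 6.41 to 6.59 with SKO, against 6.76 to 6.88 without (-0.31 ± 0.10, limma adjusted p = 0.0474). Smad6, the inhibitor of the BMP branch, fell by 0.46 ± 0.12 (adjusted p = 0.0249). Smad3, of the TGF-beta branch, fell at day 4 (-0.42 ± 0.10, adjusted p = 0.0185), where it ranged over 6.98 to 7.14 with SKO, against 7.40 to 7.54 without, and differed by -0.04 at day 8. Smad4 ranged over 8.47 to 8.68 on the 6 SKO arrays, all above the 6 others at 8.32 to 8.44, but its differences of 0.21 and 0.20 (SE 0.09) missed the threshold (adjusted p = 0.133 at day 8 and 0.189 at day 4). Smad2, Smad5, Smad7 and Smad9 did not pass.

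Of 5 secreted antagonist genes, 2 fell at day 8 and 1 rose at day 4, and of 5 target genes 1 rose at day 8 and 2 at day 4. The antagonist genes that fell at day 8 were 40%, against 12.7% of all genes, and those that rose at day 4 were 20%, against 9.52%. The target genes that rose were 20% at day 8, against 13.4%, and 40% at day 4, against 9.52%. These are lists of 5. Grem1, a BMP antagonist gene, fell at day 8 (-0.35 ± 0.10, limma adjusted p = 0.0314) and differed by 0.25 at day 4 (adjusted p = 0.132). Skil, which encodes the Smad repressor SnoN and is itself a TGF-beta target, was at 7.45, 7.57 and 7.5 with SKO at day 8, against 6.80, 6.85 and 6.70 without. All 3 arrays with SKO lay above those without, and Skil rose by 0.73 ± 0.11 at day 8 (adjusted p = 0.000985) and by 0.37 ± 0.11 at day 4 (adjusted p = 0.0390). Id1 rose at day 4 (0.55 ± 0.10, adjusted p = 0.00609) and differed by 0.31 at day 8 (adjusted p = 0.0588). The other antagonist genes Nog, Lefty1 and Lefty2 and the target genes Id2, Id3 and Id4 did not pass between the arms on either day.

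Counted over both days, 7 members were lower on all 6 arrays with SKO than on all 6 without (17.9%, against 7.1% of all genes). They were Tgfb3, Ltbp1, Inhba, Bmp4, Tgfbr3, Bmpr1b and Smad1. The 3 that were higher without overlap were Bmp2, Bmp6 and Smad4 (7.69%, against 7.48% of all genes), a share close to that of all genes. Across every alternative run, 10 of the 15 calls at day 8 stayed past the threshold (Tgfb3, Ltbp1, Inhba, Bmp2, Bmp4, Bmp6, Tgfbr3, Bmpr1b, Fst and Skil) and 7 of the 13 at day 4 (Tgfb2, Tgfb3, Ltbp1, Bmp4, Bmp6, Tgfbr3 and Id1). At day 4 the count was 8 without any 1 of 4 arrays of that day, namely those with cluster B or blank virus in either arm. It was 10 at day 8 without the day 8 array of cluster C and SKO.

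**Figure D3:**
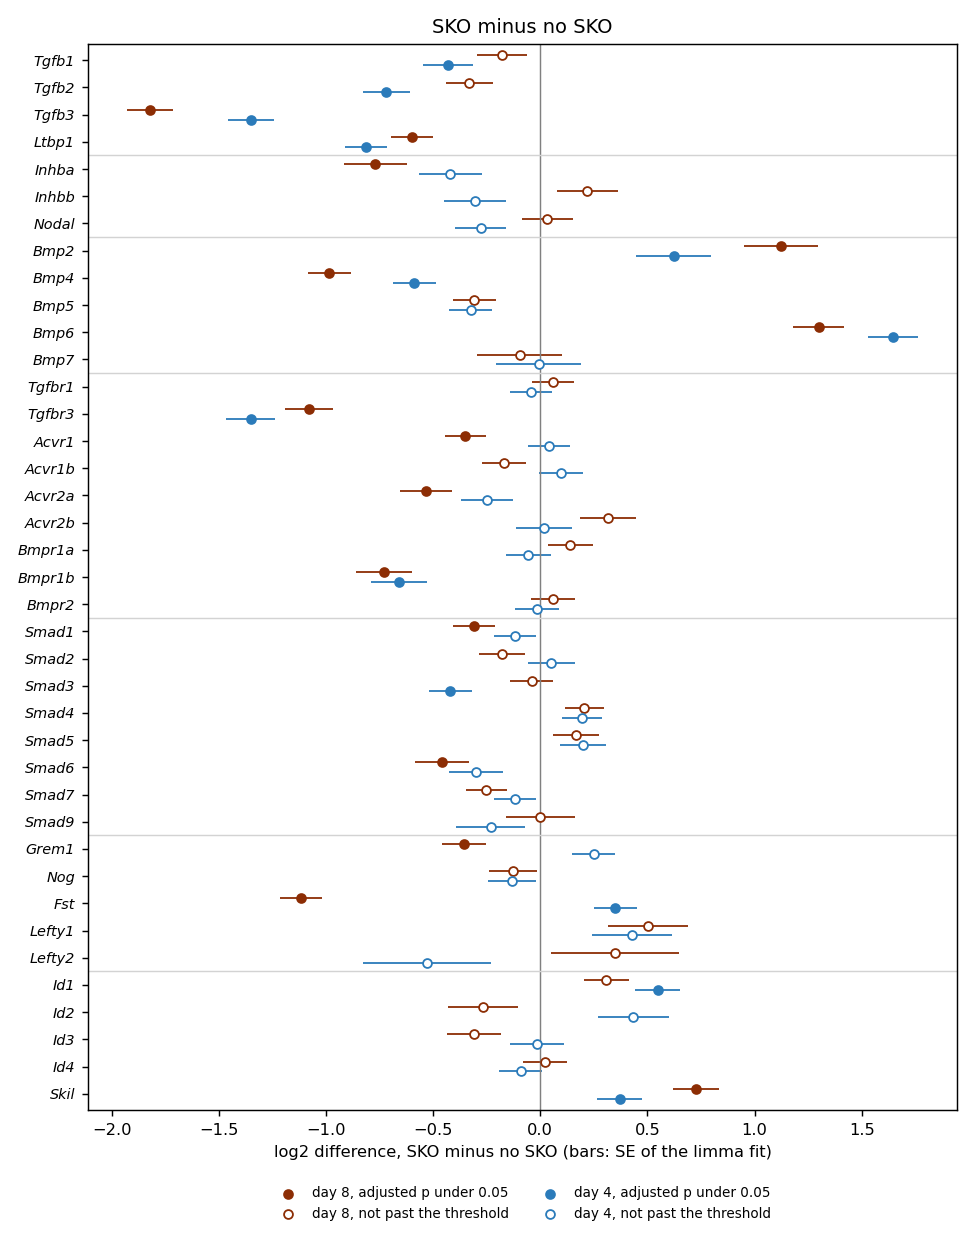
Log2 difference, SKO minus no SKO (x axis), of each of the 39 genes (rows) at day 8 and at day 4, with the SE of the limma fit as bars and filled points where the adjusted p was below 0.05. Tgfb3 is lowest at day 8 (-1.82), Bmp6 is highest at both days, and Fst lies on opposite sides of 0 at day 8 (-1.12) and day 4 (0.35).

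Other genes of the pathway were read from lists that are described here beside the members. These lists too were chosen with earlier results of these data known. Of 83 genes named, 78 had a probe set of their own. With SKO at day 8, 30 fell (38.5%, against 12.7% of all genes) and 11 rose (14.1%, against 13.4%). At day 4, 20 fell (25.6%, against 9.4%) and 9 rose (11.5%, against 9.52%), so the shares that rose were close to those of all genes. Among 14 other TGF-beta target genes, 12 fell (85.7%, against 12.7% of all genes) and 0 rose (against 13.4%) at day 8. At day 4, 10 fell (71.4%, against 9.4%) and 1 rose (7.14%, against 9.52%). Their median was -1.0 at day 8. The list shares Acta2 and Tagln, genes of the contractile apparatus, with the smooth muscle markers given above. Postn, a matrix gene, was at 8.61, 8.99 and 8.91 with SKO at day 8, against 11.52, 11.50 and 11.40 without, a difference of -2.64 ± 0.11 (limma adjusted p = 6.34e-07). Itga11, a collagen-binding integrin gene, fell by 2.28 ± 0.12.

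Among 22 other extracellular modulators, 9 fell (40.9%, against 12.7% of all genes) and 4 rose (18.2%, against 13.4%) at day 8. Ltbp2 fell by 1.59 ± 0.10 and Ltbp3, which like Ltbp1 holds latent TGF-beta, by 0.89 ± 0.13. Sostdc1, a secreted antagonist of BMP and Wnt, was at 7.31, 7.66 and 7.49 with SKO at day 8 and at 8.36, 8.37 and 8.74 at day 4, against 4.84, 4.60 and 4.63 without SKO at day 8 and 3.95, 4.77 and 4.21 at day 4. It rose by 2.80 ± 0.19 at day 8 and by 4.18 ± 0.19 at day 4 (limma adjusted p = 8.29e-06 and 1.98e-06). The integrin gene Itgb8 rose by 0.54 at day 8 although its arrays overlapped.

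Of 13 other ligand genes, 4 fell (30.8%, against 12.7% of all genes) and 2 rose (15.4%, against 13.4%) at day 8. Gdf3, a ligand gene of pluripotent cells, rose by 2.14 ± 0.11 at day 8 (limma adjusted p = 1.82e-06), and Bmp3 rose by 0.45, while Gdf10 and Gdf6 fell by 1.24 and 0.58. Of 8 other receptor genes, 1 rose and 1 fell (12.5% each, close to the shares of all genes). Tdgf1, a Nodal co-receptor gene of pluripotent cells, was at 9.37, 6.18 and 5.61 with SKO at day 8 and at most 4.10 on the other 9 arrays. Tdgf1 is also among the pluripotency markers given above, so the marker result and this one share it. The pseudoreceptor gene Bambi fell by 0.66. Of 6 other BMP target genes, 3 fell (50%, against 12.7% of all genes) and 0 rose, with Atoh8 (-1.22) and Dlx5 (-1.12) lowest. Of 15 intracellular regulators, 4 rose (26.7%, against 13.4% of all genes). The co-activator gene Ep300 (0.57) and the ubiquitin ligase gene Trim33 (0.51) were highest. In the same list 1 fell (6.67%, against 12.7%), the repressor gene Ski (-0.33).

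The second question was what changed between the days. The inhibitors of DNA binding, Id1 to Id4, are BMP target genes whose products block other helix-loop-helix factors, and the mean of each was higher at day 8 than at day 4 in both arms. With SKO, 8 of 39 members rose (20.5%, against 5.24% of all genes) and 2 fell (5.13%, against 3.66%). Without SKO, 9 rose (23.1%, against 4.05% of all genes) and 3 fell (7.69%, against 4.63%). The median change of the members was 0.02 with SKO and 0.13 without, beside -0.01 and 0.01 over all genes.

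Id1 with SKO was at 7.87, 8.04 and 8.02 at day 8, against 7.09, 7.31 and 7.16 at day 4. Without SKO it was at 7.5, 7.69 and 7.81 at day 8, against 6.65, 6.67 and 6.61 at day 4. The days did not overlap in either arm. Id1 rose by 0.78 ± 0.10 with SKO (limma adjusted p = 0.00257) and by 1.02 ± 0.10 without (adjusted p = 0.000849).

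Id3 with SKO was at 8.27, 8.60 and 8.5 at day 8, against 7.62, 7.65 and 7.61 at day 4. Without SKO it was at 8.98, 8.87 and 8.44 at day 8, against 7.63, 7.66 and 7.63 at day 4. The day 4 arrays of both arms lay within 0.1 of each other, and all day 8 arrays lay above them. Id3 rose by 0.83 ± 0.13 with SKO and by 1.13 ± 0.13 without (limma adjusted p = 0.00485 and 0.00149).

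Id4 with SKO was at 7.87, 7.89 and 7.95 at day 8, against 6.80, 7.09 and 7.06 at day 4, and without SKO at 7.90, 7.83 and 7.91 at day 8, against 7.18, 7.04 and 7.0 at day 4. It rose by 0.92 ± 0.10 with SKO and by 0.80 ± 0.10 without (limma adjusted p = 0.00107 and 0.00280). Id2 was less even. With SKO it was at 7.91, 7.57 and 7.64 at day 8, against 7.57, 6.89 and 6.82 at day 4, a difference of 0.61 ± 0.17 that missed the threshold (adjusted p = 0.0529). Without SKO it was at 8.24, 7.41 and 8.27 at day 8, against 7.19, 6.34 and 6.45 at day 4, and rose by 1.31 ± 0.17 (adjusted p = 0.00256).

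The inhibitory Smad genes are also target genes of the pathway, and Smad6 rose in both arms. Smad6 with SKO was at 6.34, 6.66 and 6.69 at day 8, against 5.82, 5.79 and 6.09 at day 4, and rose by 0.67 ± 0.12 (limma adjusted p = 0.0122). Without SKO it was at 6.97, 7.12 and 6.99 at day 8, against 6.39, 6.04 and 6.16 at day 4, and rose by 0.83 ± 0.12 (adjusted p = 0.00596). Smad7 rose without SKO (0.46 ± 0.10, adjusted p = 0.0227) and differed by 0.33 ± 0.10 with SKO (adjusted p = 0.0741).

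The promoters of Id2, Id3, Id4 and Smad6 are shown, as target and inhibitor genes whose means were higher at day 8 in both arms. The means of Id1 and Smad7 were higher at day 8 in both arms too, and no window of theirs is shown. The sequences are RefSeq windows of GRCm38.p6 from 250 bases before to 50 after the start of the gene, 5′ to 3′ on the strand of the gene. Of the 39 members, 26 had such a window. Capitals mark matches, on either strand, to 3 letter strings known from Smad binding: GGCGCC, a GC-rich string of BMP response elements, CAGAC, and the palindrome GTCTAGAC. The last 2 do not overlap as searched, since GTCTAGAC holds no CAGAC on either strand. GGCGCC was in 11.9% of 32851 windows and in those of 9 of the 26 members, among them Id2 and Id4. CAGAC was in 49.6% of windows and in 11 of 26 members, among them Id3. GTCTAGAC was in 0.213% of windows and in 1 member, Smad6. The shares count windows, while a member counts once if any window of it matches, so the counts are not like for like. The share of all windows with at least 1 of the strings was not counted. Id1 and Smad7 are not among the members with a match to any of the 3 strings, because they had no window or because it held no match. All 4 windows shown are from members with a match to at least 1 string, so their matches do not describe the members as a set. A match describes letters and not binding.
Id2, chr12:25096043-25096342, minus strand: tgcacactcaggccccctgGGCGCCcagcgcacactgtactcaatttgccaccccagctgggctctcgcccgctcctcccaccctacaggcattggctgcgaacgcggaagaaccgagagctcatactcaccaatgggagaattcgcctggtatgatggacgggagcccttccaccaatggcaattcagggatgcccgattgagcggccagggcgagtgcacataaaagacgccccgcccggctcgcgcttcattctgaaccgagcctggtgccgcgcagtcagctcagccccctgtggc
Id3, chr4:136143572-136143871, plus strand: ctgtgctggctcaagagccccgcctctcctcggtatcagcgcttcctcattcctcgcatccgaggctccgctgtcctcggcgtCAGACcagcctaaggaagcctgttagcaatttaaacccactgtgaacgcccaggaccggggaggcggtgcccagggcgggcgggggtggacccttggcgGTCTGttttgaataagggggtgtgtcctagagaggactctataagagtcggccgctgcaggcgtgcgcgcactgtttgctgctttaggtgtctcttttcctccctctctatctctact
Id4, chr13:48260866-48261165, plus strand: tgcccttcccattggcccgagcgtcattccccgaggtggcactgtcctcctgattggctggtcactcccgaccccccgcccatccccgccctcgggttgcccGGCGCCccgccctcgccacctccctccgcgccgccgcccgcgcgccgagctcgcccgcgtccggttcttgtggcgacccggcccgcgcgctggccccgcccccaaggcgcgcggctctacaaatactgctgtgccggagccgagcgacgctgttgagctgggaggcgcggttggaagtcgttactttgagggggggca
Smad6, chr9:64022010-64022309, minus strand: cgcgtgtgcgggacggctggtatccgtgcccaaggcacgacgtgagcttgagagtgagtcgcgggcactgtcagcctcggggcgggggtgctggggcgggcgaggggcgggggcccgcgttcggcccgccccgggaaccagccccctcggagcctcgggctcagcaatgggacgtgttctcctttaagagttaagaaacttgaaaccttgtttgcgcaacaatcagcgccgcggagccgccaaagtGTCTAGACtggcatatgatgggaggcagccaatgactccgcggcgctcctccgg

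**Figure D4:**
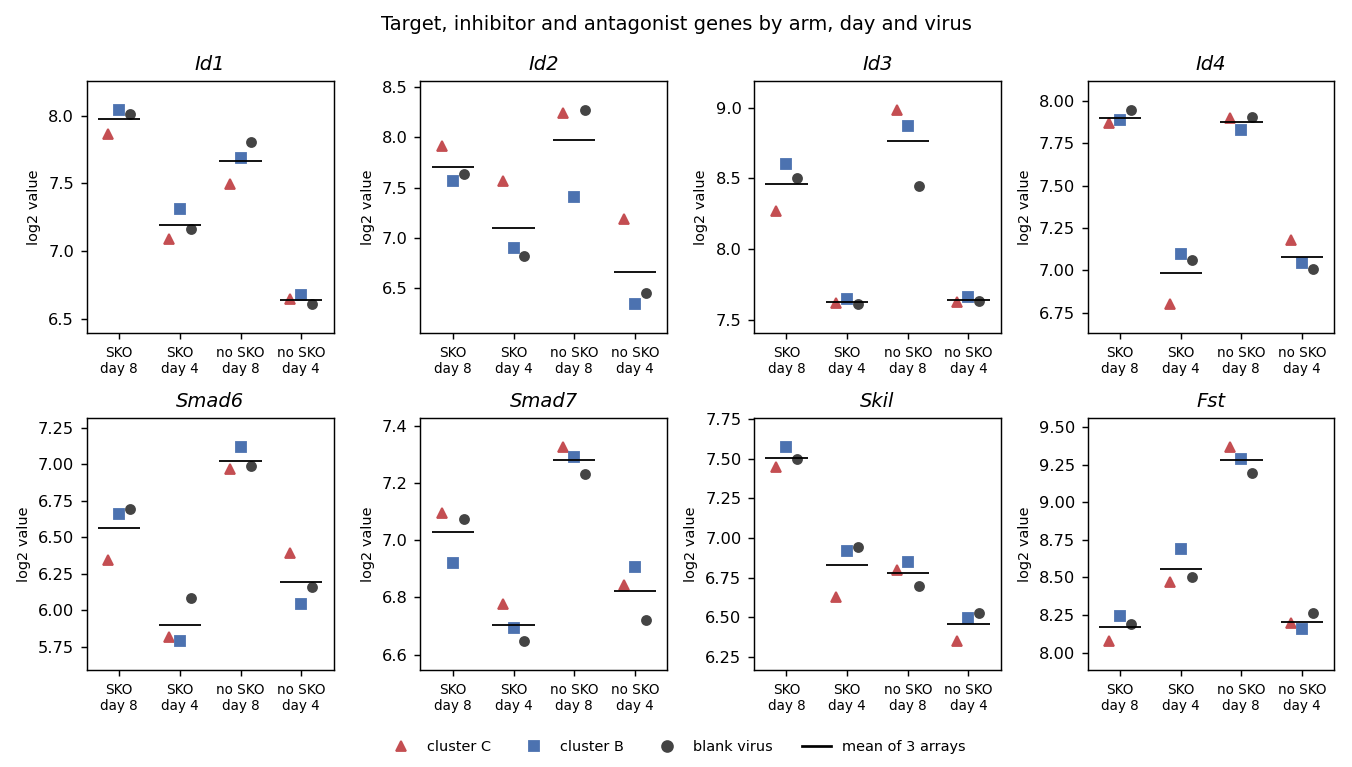
Log2 value (y axis, scaled per gene) of 4 Id genes, the inhibitory Smad genes, Skil and Fst by arm and day (x axis), 1 point per array with the virus as the symbol and a line at the mean of 3 arrays. Id1, Id3 and Id4 are higher at day 8 than at day 4 on every array of both arms, and Fst is higher at day 8 without SKO and lower with SKO.

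Other members passed the threshold for the day change in 1 arm and not in the other. With SKO, Skil rose by 0.68 ± 0.11 (limma adjusted p = 0.00549), Bmp2 by 0.67 ± 0.17 (adjusted p = 0.0463) and the type I BMP receptor gene Bmpr1a by 0.42 ± 0.11 (adjusted p = 0.0428). Smad9 rose by 0.70 ± 0.16, with 5.35, 5.63 and 5.72 at day 8 and 4.23, 4.96 and 5.42 at day 4, so the days overlapped. Grem1 was at 7.84, 8.12 and 8.15 at day 8, against 8.26, 8.62 and 8.67 at day 4, and fell by 0.48 ± 0.10 (adjusted p = 0.0209). Without SKO, Tgfb2 fell by 0.77 ± 0.11, Ltbp1 by 0.50 ± 0.10 and the type II BMP receptor gene Bmpr2 by 0.41 ± 0.10, while Bmp4 rose by 0.44 ± 0.10 and the activin type I receptor gene Acvr1b by 0.52 ± 0.10. In the other arm, without SKO, Skil (0.32), Bmp2 (0.17), Bmpr1a (0.22) and Smad9 (0.46) went the same way, and Grem1 (0.12) the other way. With SKO, Tgfb2 (-0.38), Ltbp1 (-0.28), Bmpr2 (-0.33), Bmp4 (0.04) and Acvr1b (0.26) went the same way as without. A day change past the threshold in 1 arm alone is not shown to differ between the arms.

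Fst encodes follistatin, which binds and blocks activin. With SKO it was at 8.07, 8.25 and 8.19 at day 8, against 8.47, 8.69 and 8.51 at day 4. Without SKO it was at 9.37, 9.29 and 9.20 at day 8, against 8.19, 8.16 and 8.27 at day 4. The arrays of the 2 days did not overlap in either arm, and the order was opposite. Fst fell by 0.39 ± 0.10 with SKO (limma adjusted p = 0.0446) and rose by 1.08 ± 0.10 without (adjusted p = 0.000461). Relative to cells without SKO, it fell by 1.12 ± 0.10 at day 8 (adjusted p = 4.72e-05) and rose by 0.35 ± 0.10 at day 4 (adjusted p = 0.0381). The difference between the day changes was tested for all genes, and Fst was the 1 member of 39 that passed (2.56%, against 2.97% of all genes), at -1.47 ± 0.14 (adjusted p = 0.00136). This call on the difference held under every alternative run, and so did the rise without SKO and the fall at day 8. The fall between the days with SKO missed the threshold in 13 of 19 alternatives, and the rise at day 4 in 12 of 18. These alternatives are not all separate checks.

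Of the 10 day calls with SKO, 4 stayed past the threshold under every alternative (Id1, Id3, Id4 and Skil), and of the 12 without SKO, 7 did (Tgfb2, Smad6, Fst and Id1 to Id4). The count with SKO was 4 without either array with SKO and cluster B, and 5 without any 1 of the other 4 arrays with SKO. Without SKO it was 7 without either blank virus array or either cluster C array of that arm. Of the other 78 pathway genes, 11 rose (14.1%) and 4 fell (5.13%) between the days with SKO, beside 5.24% and 3.66% of all genes. Without SKO, 16 rose (20.5%) and 4 fell (5.13%), beside 4.05% and 4.63%. Epithelial markers rose with the day with SKO (5 of 5), and 0 of 5 did without SKO, where 1 had an unadjusted p below 0.05 by the limma fit.

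The third question was what the microRNA clusters did to the pathway. No member passed in any of the 5 comparisons between viruses. The type II TGF-beta receptor gene Tgfbr2 is not a member, so this result does not cover it. With cluster C and SKO, relative to blank virus and SKO, 0 of 39 passed by the limma fit, against 0.0201% of all genes. An unadjusted p below 0.05 was found for 5 of the 39, beside 1359 of all 19938 genes. Of the 39, 28 lay below 0, beside 10431 of all genes, with a median of -0.10 beside -0.01 over all genes. All 10 fibroblast markers lay below 0 in the same comparison, with a median of -0.22. For cluster C without SKO, 27 of the 39 members lay above 0, beside 9842 of all genes.

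Smad9, a BMP-branch Smad, was lowest at -0.78 ± 0.20 (limma adjusted p = 0.641). At day 8 it was at 5.35 with cluster C, against 5.72 with blank virus, and at day 4 at 4.23, against 5.42, so most of the difference came from day 4. The difference was -0.47 without the cluster C array of day 4 and -0.48 without the blank virus array of day 4. It was -1.10 without the cluster C array of day 8 and -1.08 without the blank virus array of day 8. With a virus effect shared by the arms it was -0.29. Grem1 was next at -0.36 ± 0.12 (adjusted p = 0.687), with 7.84 against 8.15 at day 8 and 8.26 against 8.67 at day 4. The highest were Lefty2 (0.52, adjusted p = 0.821) and Id2 (0.51 ± 0.20, adjusted p = 0.704). The 5 members with an unadjusted p below 0.05 by the limma fit were Smad9, Grem1, Id2, Tgfb2 (-0.32) and Acvr2b (0.42). Acvr2b is an activin type II receptor gene. Lefty2, with an SE of 0.37, was not among the 5. Id2 was at 0.31 without the cluster C array of day 4 and at 0.72 without that of day 8. Grem1 was at -0.23 with a virus effect shared by the arms and at -0.41 without the cluster C array of day 8.

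Lefty1 and Lefty2 encode Nodal antagonists of the early embryo and of pluripotent cells. Lefty2 was at 5.01, 3.90 and 3.49 with SKO at day 8, at 3.37, 3.43 and 3.85 with SKO at day 4, at 3.40, 4.22 and 3.74 without SKO at day 8, and at 3.65, 4.26 and 4.32 without SKO at day 4. The day 8 array of cluster C and SKO was the highest of the 12, and several others lay near the lower quartile of the arrays. The Lefty2 difference was -0.27 when that array was left out and -0.19 when its blank virus partner of day 8 was. Lefty1 was highest on the same array, at 5.30, against 4.10 to 4.95 on the other 11, and so was Bmp2. This is 1 array, on which Nanog and Dppa5a were highest too, and the values have no replicate.

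Id2 was highest with cluster C at day 4 in both arms. With SKO it was at 7.57 with cluster C, 6.89 with cluster B and 6.82 with blank virus, and without SKO at 7.19, 6.34 and 6.45. At day 8 the cluster C array was highest with SKO, at 7.91 against 7.57 and 7.64, and without SKO the cluster B array was lowest, at 7.41 against 8.24 and 8.27. The fit gave 0.35 for cluster C and -0.49 for cluster B without SKO, relative to the same blank virus arrays (limma adjusted p = 0.824 for cluster B). Id2 was singled out after its values were seen.

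With cluster B and SKO, relative to blank virus and SKO, 0 of 39 passed, against 0.01% of all genes, and 0 had an unadjusted p below 0.05 by the limma fit. Differences ran from -0.28 (Smad9) to 0.21 (Acvr2b), and this comparison shares its blank virus arrays with that of cluster C. Between cluster C and cluster B with SKO, 0 passed, against 0.0201% of all genes. By the limma fit 5 members had an unadjusted p below 0.05, beside 1102 of all 19938 genes. The 5 were Bmp2 (0.53), Id2 (0.51), Smad9 (-0.51), Tgfb2 (-0.42) and Grem1 (-0.32). Without SKO, 0 of 39 passed for cluster C and for cluster B, against 0% of all genes in each, with 0 and 1 at an unadjusted p below 0.05 by the limma fit. The 1 was Id2.

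**Figure D5:**
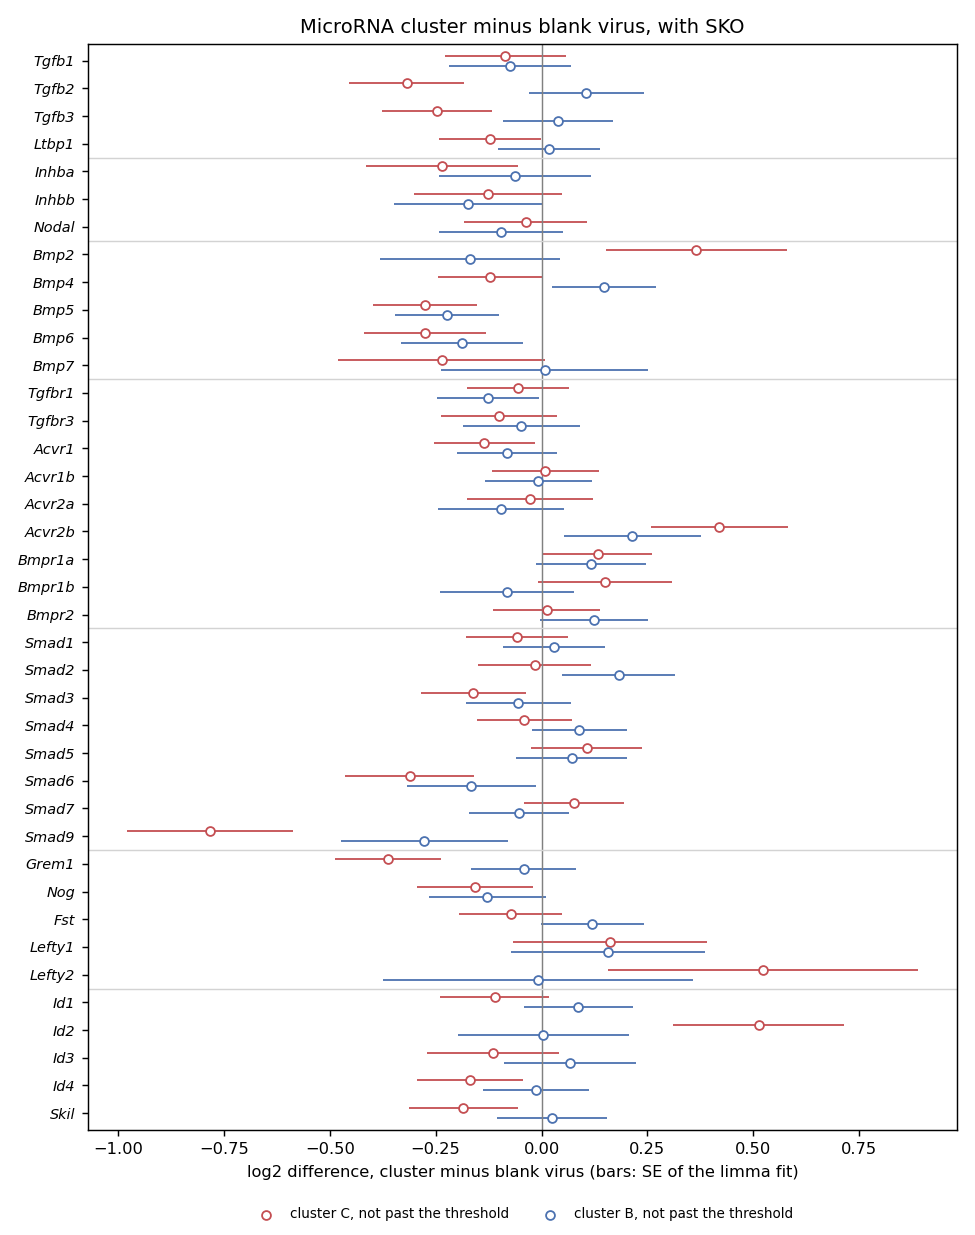
Log2 difference, microRNA cluster minus blank virus with SKO (x axis), of each of the 39 genes (rows) for cluster C and cluster B, with the SE of the limma fit as bars. All points are open, since 0 of 39 passed the threshold in either comparison, and Smad9 with cluster C is lowest at -0.78.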

How the data were processed

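Expression was measured on 12 Affymetrix whole-transcript arrays from 100 ng of biotin-labelled total RNA each, per the labels' protocols. The authors deposited 1 log2 value for each of 28853 probe sets on each array; Partek and RMA appear, with no version, per the submitters' processing notes. That these are on a log2 scale follows from their range, 0.916 to 14.03. A genome build is not given in the sources used here. Probe sets with 1 gene in the platform annotation (21789) were kept, and the one with the highest mean per gene gave 19938 genes.

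The test across genes was limma 3.58.1 (R 4.3.3), as 1 fit with 8 coefficients (SKO, day, virus, SKO by day, SKO by virus) and 4 residual degrees of freedom, in 10 comparisons. The fit was also run on simulated data with independent normal noise. No array or culture effect was simulated, so that run does not cover such effects. Values after RMA carry no counts. Figures used Python 3.11.15 with matplotlib 3.10.9. The members and lists were chosen with earlier results of these data known. Members given on every array are those past the threshold with a log2 difference of 1 or more in any comparison, the 2 highest and 2 lowest for SKO at day 8, for the day change with SKO and for cluster C with SKO, and further members where the text needs them. Of other pathway genes, up to 2 highest and 2 lowest per list past the threshold for SKO at day 8 are named. Alternatives were quantile normalization, trend and robust empirical Bayes, a virus effect shared by the arms, equal array medians, leaving out dim genes, the mean over probe sets, each arm fitted alone and leaving out each array.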

Additional observations from a re-analysis of the deposited data

Results flagged for a closer look

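The change from day 4 to day 8 differed between cells with and without SKO, by a test of that difference in the limma fit, for Fst and for 8 of the 78 other pathway genes measured (10.3%, against 2.97% of all genes). The values of Fst and of the 5 among those 8 that the results describe follow. Fst changed by -0.39 with SKO and 1.08 without, a difference of -1.47 (adjusted p = 0.00136). Sostdc1 changed by -1.0 with SKO and 0.38 without, a difference of -1.38 (adjusted p = 0.0290). Tdgf1, which is also among the pluripotency markers, changed by 3.49 with SKO and -0.01 without, a difference of 3.50 (adjusted p = 0.0434). The day 8 array of cluster C and SKO contributed most to that difference, at 9.37. Gdf3 changed by 1.28 with SKO and 0.46 without, a difference of 0.82 (adjusted p = 0.0259). Postn changed by 0.84 with SKO and 1.66 without, a difference of -0.82 (adjusted p = 0.0250). Gdf10 changed by 0.21 with SKO and 0.96 without, a difference of -0.75 (adjusted p = 0.0449).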

How the results depend on the processing

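Of 51 member values past the threshold, 29 stayed past it under all their alternatives and 0 changed sign, and 42 stayed past it under all alternatives that kept the 12 arrays. The count of members for the day change with SKO was 10, and 16 with trend and robust empirical Bayes. Over all genes these settings gave 1775 and 2882, and for the day change without SKO 1730 and 2921, with 1003 when that arm was fitted alone. For the difference between the day changes it was 1, and 4 with trend and robust empirical Bayes (Fst, Grem1, Id2 and Tgfb3) and 2 with dim genes left out (Fst and Grem1), beside 592, 1346 and 902 over all genes. Without 1 array the counts ran from 8 to 14 for SKO at day 4, from 10 to 15 for SKO at day 8, from 4 to 9 for the day change with SKO and from 7 to 11 without SKO. Leaving out an array also takes 1 of the 4 residual degrees of freedom. For the day changes, leaving out either day's array of the same arm and virus gives the same fit. Those alternatives are therefore not separate checks. No member passed between viruses under any alternative. The Lefty2 difference for cluster C with SKO was 0.52, and ran from -0.27 to 1.32 without 1 array; it was -0.27 without its cluster C array of day 8 and -0.19 without its blank virus array of day 8. The mean over probe sets cannot move a member's value, since each has 1 probe set. No paired analysis of replicates was possible because each combination has 1 array and the labels give no replicate numbers to pair by. The fit has virus and SKO by virus terms, so days were compared within each virus of an arm. The difference between the arms was averaged over the viruses. Its SE does not hold the amount by which that difference varies between viruses.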
